A study of Mus musculus with 62 samples.

Results

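The 33 genes described here belong to myelin and the mature oligodendrocyte, and were taken from both count tables by their mouse symbols. All 33 were found among the 27179 genes counted, and none lies in the segments that Ts65Dn mice carry in an additional copy. The forebrain of E17.5 embryos (E, embryonic day) was sequenced from 8 euploid and 7 Ts65Dn animals, whose sex the labels do not give. The hippocampus of 6-week-old mice was sequenced from 8 euploid, 7 Ts65Dn and 8 Ts65Dn;Brwd1+/- males, and from 8 females of each of these genotypes. Ts65Dn mice carry distal chromosome 16 and proximal chromosome 17 genes on a separate additional chromosome and are a model of Down syndrome (DS). Ts65Dn;Brwd1+/- mice have the same chromosome with 1 mutant copy of Brwd1 (the repro5 allele in every cell), which brings the gene, a chromatin reader, back to its euploid copy number. All animals shared a mixed DBA/2J x B6EiC3Sn/J background, and the chromosome 17 genes of the model are not among those in additional copy in DS. The libraries held polyA RNA of whole tissue, 1 per animal.

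Oligodendrocytes wrap axons with myelin, a stack of membrane that is rich in lipid and holds a small set of very abundant proteins. Precursor cells divide and migrate through the late embryonic brain, and after birth they leave the cell cycle, pass through a committed stage and switch on the myelin genes, a step driven by the transcription factors Sox10 and Myrf. In the mouse hippocampus this takes place mostly over the first weeks after birth. The 33 genes fall by role into 10 that encode structural and cytoskeletal proteins (Mbp, Mobp, Cnp, Mal, Tspan2, Opalin, Ermn, Sept4, Anln, Gsn), 8 of adhesion, junctions and the extracellular matrix (Mog, Mag, Cldn11, Gjb1, Gjc3, Hapln2, Ninj2, Adamts4), 7 lipid and metabolic enzymes (Ugt8a, Fa2h, Gal3st1, Aspa, Enpp6, Qdpr, Car2), the 2 transcription factors Myrf and Nkx6-2, and 6 receptors, transport proteins and others (Trf, Gpr37, Plekhh1, Ppp1r14a, Tmem88b, Tmem125).

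The start-site regions of these genes are shown because the genes moved together across the adult animals, as given further on. RefSeq promoter sequence on GRCm38.p6, from 250 bases before to 50 after a start site, was at hand for 27 of the 33 genes. It was searched on both strands for the letters CTGGCAC or CTGGTAC, cores of the motif bound by MYRF, and ACAAAG or ACAATG, cores of the motif bound by SOX factors. The motifs do not overlap each other in letters. The MYRF letters occurred for 6 of 27 genes (22.2%), against 8.1% of the 27025 genes with such sequence, and the SOX letters for 12 of 27 (44.4%), against 31.7%. The genes of the 4 single promoters with the most matches are printed over the bases before the start site, with matches in capitals, where promoters tied at the same number of matches were ordered by MYRF matches and then by name. Of the promoters with 2 matches, those of Mag, Gjb1 and Sept4 are not printed. A match describes letters and not a bound site.
Mobp, chr9:120149492-120149741, plus strand: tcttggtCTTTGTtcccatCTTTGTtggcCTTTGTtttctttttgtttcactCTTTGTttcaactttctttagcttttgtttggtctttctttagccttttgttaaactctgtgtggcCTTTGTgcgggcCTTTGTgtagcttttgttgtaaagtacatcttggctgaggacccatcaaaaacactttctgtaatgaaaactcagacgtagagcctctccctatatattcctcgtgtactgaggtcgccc
Opalin, chr19:41077114-41077363, minus strand: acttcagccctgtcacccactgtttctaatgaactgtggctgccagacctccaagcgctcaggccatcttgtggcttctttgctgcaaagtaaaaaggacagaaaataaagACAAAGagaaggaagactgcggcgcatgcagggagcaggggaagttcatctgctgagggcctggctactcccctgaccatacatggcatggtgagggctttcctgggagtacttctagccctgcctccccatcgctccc
Opalin, chr19:41077069-41077098, minus strand: aatgggagACAAAGacctgcaGTGCCAGtg
Cnp, chr11:100574689-100574938, plus strand: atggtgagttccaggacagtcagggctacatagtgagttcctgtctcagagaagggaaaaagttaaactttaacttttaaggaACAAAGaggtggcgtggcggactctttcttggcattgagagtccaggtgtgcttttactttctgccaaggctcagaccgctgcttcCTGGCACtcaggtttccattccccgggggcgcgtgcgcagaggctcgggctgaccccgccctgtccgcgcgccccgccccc
Hapln2, chr3:88027512-88027761, minus strand: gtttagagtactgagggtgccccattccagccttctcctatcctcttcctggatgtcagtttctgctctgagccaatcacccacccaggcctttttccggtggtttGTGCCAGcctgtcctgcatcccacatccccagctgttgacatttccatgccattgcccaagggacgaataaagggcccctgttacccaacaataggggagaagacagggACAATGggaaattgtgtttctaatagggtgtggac
The Mobp sequence holds 6 SOX matches, each on the reverse strand and so read as CTTTGT. Their first bases lie at positions -243, -231, -221, -198, -132 and -120, counted from -1 just before the start site. In Opalin, 1 SOX match starts at -139, and the short piece from 16 to 45 after the start site holds another at 24 and a reverse-strand MYRF match (GTGCCAG) at 37. Cnp holds a SOX match at -167 and a MYRF match at -81, and Hapln2 a reverse-strand MYRF match at -144 and a SOX match at -35.

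Library totals ran from 14.9 to 137.1 M reads. The 33 genes held 0.0237% to 0.0396% of the reads of an E17.5 forebrain and 0.321% to 0.735% of those of an adult hippocampus. In 4 adult libraries labelled Ts65Dn or Ts65Dn;Brwd1+/- (males B145, T35 and B138, female B136), the triplicated genes stood at euploid dosage, with a median log2 difference from euploid of 0.007 to 0.045, where the other adult libraries with those labels were at 0.509 or above. The library labelled male Ts65Dn B88 had female levels of Xist and Ddx3y, and the library labelled female euploid B85 had male levels. These 6 libraries were kept under their labels, and each adult result was also computed without the first 4 and without the last pair. In both cases, 0 of the 33 genes passed the test in every adult comparison, as with all libraries.

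Levels are given as RPKM, that is, reads divided by the exon length of the gene and by the library size, which was scaled by TMM over all 62 libraries. In the adult euploid hippocampus, Mbp, the myelin basic protein that holds the cytoplasmic faces of the membrane together, was far above the others. It had 207, 362 and 462 RPKM in the lowest, median and highest euploid male, and 266, 428 and 454 RPKM in the females. Alone it made up 51.2% of the reads of the 33 genes. Next in mean level came Cnp, a myelin enzyme that binds the cytoskeleton, with 139.8 RPKM, followed by Car2 (carbonic anhydrase II) at 109 RPKM, Trf (the iron carrier transferrin) at 108, Sept4 (a septin filament protein) at 93.0 and Mag (an adhesion protein of the innermost membrane, facing the axon) at 88.1. The order from Car2 to Mal (69.6 RPKM), through Cldn11 at 85.6 RPKM, is that of the means. The genes were measured in the same animals, and differences between neighbours in this order were not tested. At the other end were Ninj2, an adhesion protein, with a mean of 1.70 RPKM, and Enpp6, a choline phosphodiesterase of newly formed oligodendrocytes, with 1.21 RPKM.

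The other marker genes lay between these ends. In euploid males Mog, an adhesion protein of the outermost myelin layer, was at 17.45, 33.8 and 42.5 RPKM in the lowest, median and highest animal, and in euploid females at 22.6, 39.2 and 43.3 RPKM. Mobp, a small basic protein of myelin, was at 28.9, 56.3 and 82.1 RPKM in males and at 37.6, 58.1 and 70.3 RPKM in females. Opalin, a membrane glycoprotein made late by myelinating cells, was at 5.05, 9.47 and 11.2 RPKM in males and at 5.36, 9.18 and 11.03 RPKM in females. The ranges of males and females overlapped for all 3 genes. Of the 2 transcription factors, Myrf was at a mean of 16.9 RPKM and Nkx6-2 at 11.6 RPKM. Both oligodendrocyte gap junction proteins were of like level, with 9.44 RPKM for Gjb1 and 11.7 RPKM for Gjc3.

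In euploid E17.5 forebrain the order by RPKM was another one. Qdpr, which regenerates the cofactor of aromatic amino acid hydroxylases and is not restricted to oligodendrocytes, was highest with a mean of 11.9 RPKM. Cnp followed at 11.8 and Cldn11, the tight junction protein of myelin, at 11.3 RPKM. Mog, with 5.76, 6.12 and 7.17 RPKM in the lowest, median and highest euploid embryo, lay above Mbp with 3.83, 4.66 and 5.99 RPKM, where in the adult Mbp was above Mog in each euploid group. Mag was at 0.557, 1.24 and 1.71 RPKM in these embryos.

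Several genes that define the mature cell were at or near 0 in the embryo. Opalin had 0 reads in 7 of 8 euploid embryos and 3 in the other, and 0 to 2 reads in Ts65Dn embryos. Ninj2 had 0 to 2 reads in each group. Mobp had 3 to 21 reads in euploid and 5 to 33 in Ts65Dn embryos, Tmem125 0 to 16 and 2 to 22, and Enpp6 0 to 34 and 2 to 23. These 5 genes did not pass edgeR's filter on low counts (filterByExpr) in the embryos, and 28 of the 33 did. A count of 0 in a library allows up to 3 reads, for counting error only.

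**Figure D1:**
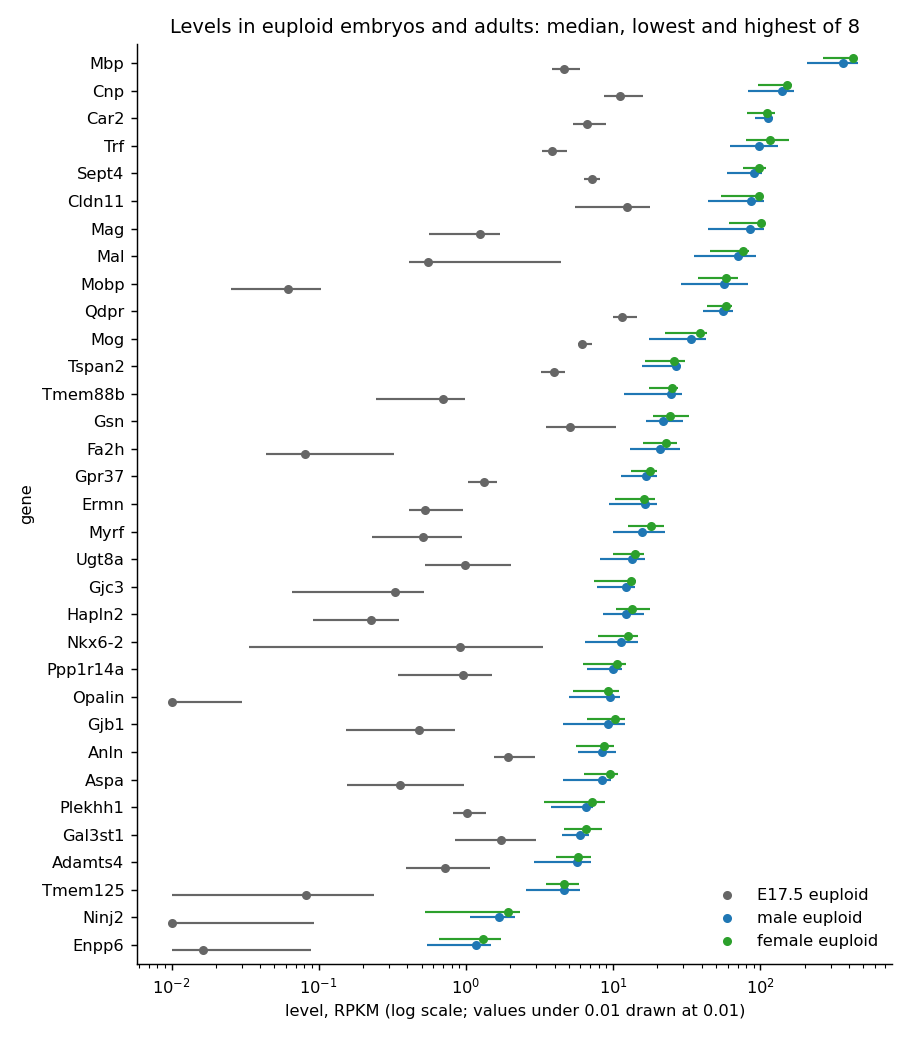
Level of each of the 33 genes in RPKM on a log axis (points, median; lines, lowest to highest of 8 animals) in euploid E17.5 forebrain (grey) and euploid adult hippocampus of males (blue) and females (green). Every gene is higher in the adults, where Mbp stands at the top (medians of 362 and 428 RPKM), and Opalin and Ninj2 sit at the left edge in embryos.

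Euploid adult hippocampus was set against euploid E17.5 forebrain to describe the genes over development. Age and tissue differ together here and cannot be told apart, and in bulk tissue neither can more cells of a type and more RNA per cell. All 33 genes rose in the adult (edgeR's quasi-likelihood test, adjusted p under 0.1), where 84.6% of the genes tested passed in either direction. The median log2 fold change of the 33 was 4.25, with the median of all genes at -0.016. The change was above 2 on the log2 scale for 31 genes, above 4 for 17 and above 6 for 7. By role the medians were 4.203 for structural proteins, 4.70 for adhesion and junction proteins, 3.99 for enzymes, 4.16 for the transcription factors and 4.204 for the others.

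The largest change was that of Opalin, with a log2 fold change of 10.28 (SE 0.33). It rests on 3 reads over the 8 embryos, and the ratio of the adult mean to the pooled embryonic value was 1052, with a counting interval of 360.1 to 5103. Mobp rose by 9.80 (SE 0.26), from 80 reads in all euploid embryos. Fa2h, which makes the hydroxylated fatty acids of myelin lipids, rose by 7.17. Ninj2 rose by 6.57 from 4 reads, a ratio of 76.4 with a counting interval of 29.9 to 280.6. Mbp rose by 6.27 (SE 0.16), Mal, a proteolipid that carries cargo to the myelin membrane, by 6.16, and Mag by 6.15. The 10 genes with the smallest p-values held Mbp (adjusted p = 4.4e-22), Sept4, Car2, Mobp, Hapln2, Gpr37, Mag, Opalin, Trf and Fa2h. Of these, Hapln2, a link protein of the node of Ranvier, rose by 5.84, Trf by 4.74, Car2 by 3.99, and both Sept4 and Gpr37, a receptor of myelinating cells, by 3.67.

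The smallest change was that of Gal3st1, the sulfotransferase that makes sulfatide, with 1.88 (SE 0.18). Anln, an actin-binding protein that dividing cells need for cytokinesis, rose by 1.98, Gsn, the actin-severing protein gelsolin, by 2.1, and Qdpr by 2.22. Mog rose by 2.45, against 6.27 for Mbp. The 3 largest and the 4 smallest changes are described by their order alone, without a test of their differences.

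The genes of earlier stages of the lineage did not follow this pattern. Of 23 genes of precursors and committed cells, 13 rose and 7 fell in the adult, with a median log2 fold change of 0.44. Pdgfra, the growth factor receptor of the precursor, rose by 0.44 (SE 0.08), while Olig2, a lineage factor from a triplicated segment, differed by 0.08 (SE 0.08, adjusted p = 0.335). The summed level of these 23 genes had a median of 1040 CPM (counts scaled to library size) in euploid embryos and of 1211 in euploid males. That of the 33 myelin genes went from 230 to 5776 CPM. Of 40 other genes of oligodendrocytes, 36 rose and 4 fell, with a median of 1.44. Of 22 genes of cholesterol synthesis, which supplies the main lipid of myelin, 1 rose and 18 fell, with a median of -1.10.

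The E17.5 comparison asks how the embryonic forebrain of the model differs from euploid. Of the 28 myelin genes tested, 2 rose in Ts65Dn and none fell, at a rate among all 16395 genes of 1.35%. Car2, which supplies bicarbonate and is also made by choroid plexus cells, was at 5.35, 6.69 and 8.95 RPKM in the lowest, median and highest euploid embryo, and at 6.24, 10.3 and 12.7 RPKM in Ts65Dn. The Ts65Dn embryo TS5 was low at 6.24 RPKM, inside the euploid range, and the other Ts65Dn embryos lay above that range. The log2 fold change of Car2 was 0.58 (SE 0.14, 95% interval 0.28 to 0.87, adjusted p = 0.0695). Tspan2, a tetraspanin of the oligodendrocyte membrane, was at 3.24, 3.96 and 4.69 RPKM in euploid and at 4.32, 5.30 and 5.48 RPKM in Ts65Dn embryos. A single euploid embryo (EU6) was at or above the lowest Ts65Dn embryo, and 2 Ts65Dn embryos were at or below the highest euploid one. Its log2 fold change was 0.34 (SE 0.09, 95% interval 0.16 to 0.52, adjusted p = 0.0913).

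Both calls sat close to the threshold. With 1 embryo left out at a time, neither gene passed without EU4, EU5, EU7, EU8, TS2, TS3, TS6 or TS7, and without EU3 the number of genes called was 5. At a threshold of 0.05 none passed, and DESeq2 called both genes and Cldn11. None passed with Ddx3y, a male-specific gene, as a covariate.

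Among the genes that did not pass, Cldn11 had the smallest p, at 5.48, 12.4 and 17.9 RPKM in euploid and 15.7, 19.1 and 23.5 RPKM in Ts65Dn embryos. Only EU2 of the euploid embryos reached the Ts65Dn range. The log2 fold change was 0.78 (SE 0.22, 95% interval 0.32 to 1.25, adjusted p = 0.141). Mbp was at 5.04, 5.60 and 6.91 RPKM in Ts65Dn embryos, with a difference of 0.26 on the log2 scale (95% interval 0.05 to 0.46, adjusted p = 0.303). Cnp, at 11.9, 14.2 and 18.3 RPKM in Ts65Dn against 8.64, 11.1 and 16.02 RPKM in euploid embryos, differed by 0.32 (0.05 to 0.60, adjusted p = 0.347). Mag, at 0.980, 1.69 and 2.14 RPKM in Ts65Dn embryos, differed by 0.30 (-0.17 to 0.78). Mog lay at 5.01, 6.39 and 6.79 RPKM in Ts65Dn embryos, and its difference of -0.04 had an interval of -0.23 to 0.15. The groups of Mog thus covered nearly the same range.

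Over the 28 genes, 22 of the log2 fold changes were above 0 and the median was 0.24, where the median of all genes was -0.014 and 46.3% were above 0. At an unadjusted p under 0.05, 8 of the 28 were higher and 0 lower, where 6.84% of all genes were higher and 5.25% lower. The genes were measured in the same embryos, so counts over genes here are descriptions and not counts of independent observations. By role, 6 of 6 enzymes were above 0 with a median of 0.51, both transcription factors with 0.70, 5 of 7 adhesion and junction genes, 4 of 5 of the others, and 5 of 8 structural genes with 0.24. The summed level of the 33 genes was 201, 230 and 289 CPM in the lowest, median and highest euploid embryo and 269, 306 and 329 CPM in Ts65Dn. In 2 euploid embryos it was at or above the lowest Ts65Dn value. The 2 euploid embryos with the highest mean log2 level of the 33 genes (EU6 and EU3) were also the 2 euploid embryos with high Ddx3y. Ddx3y was also high in 3 of the 7 Ts65Dn embryos, with means of 1.43 (TS1), 1.59 (TS2) and 1.51 (TS7). The Ts65Dn embryos low in Ddx3y lay on both sides of these, at 1.70 (TS3), 1.57 (TS6), 1.29 (TS5) and 1.27 (TS4). Of the 5 genes not tested, Enpp6 differed by 1.24 (SE 0.59, unadjusted p = 0.0495, adjusted p = 0.484) in a fit without the filter, with Mobp at -0.19, Ninj2 at -0.57, Opalin at 0.76 and Tmem125 at 0.08.

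Genes of other cells were not level between these embryos. All 13 choroid plexus genes were above 0 in Ts65Dn against euploid, with a median of 0.54 and 1 called (Enpp2). Their summed level ran from 87.3 to 1257 CPM in euploid and from 654 to 1438 CPM in Ts65Dn embryos, and the lowest was EU7, without which neither Car2 nor Tspan2 passed. Of 22 genes of precursors and committed cells, 15 were above 0 with a median of 0.27, and 1 was called, Pdgfra at 0.39 (SE 0.09, adjusted p = 0.0546). Of 39 other oligodendrocyte genes 26 were above 0 with a median of 0.09, and Apod, a lipid-binding secreted protein, and Prr18 were called at 0.65 and 0.54. Prr18 lies in the triplicated part of chromosome 17. Of 12 astrocyte genes 10 were above 0 with a median of 0.26, and the connexins Gja1 and Gjb6 were called at 0.59 and 0.69. Cdh5 and Vtn of the endothelium and mural list were called at 0.48 and 0.56, with 8 of 10 genes above 0. None of 8 proliferation genes was above 0, with a median of -0.29 and 0 called, and 9 of 22 cholesterol synthesis genes were above 0 with a median of -0.01 and 0 called. The lists of microglia, neuron, hippocampal subfield and red blood cell genes had 0 called, with medians of 0.02, 0.06, 0.04 and 0.25. The part of these lists in the result for the myelin genes was not tested.

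**Figure D2:**
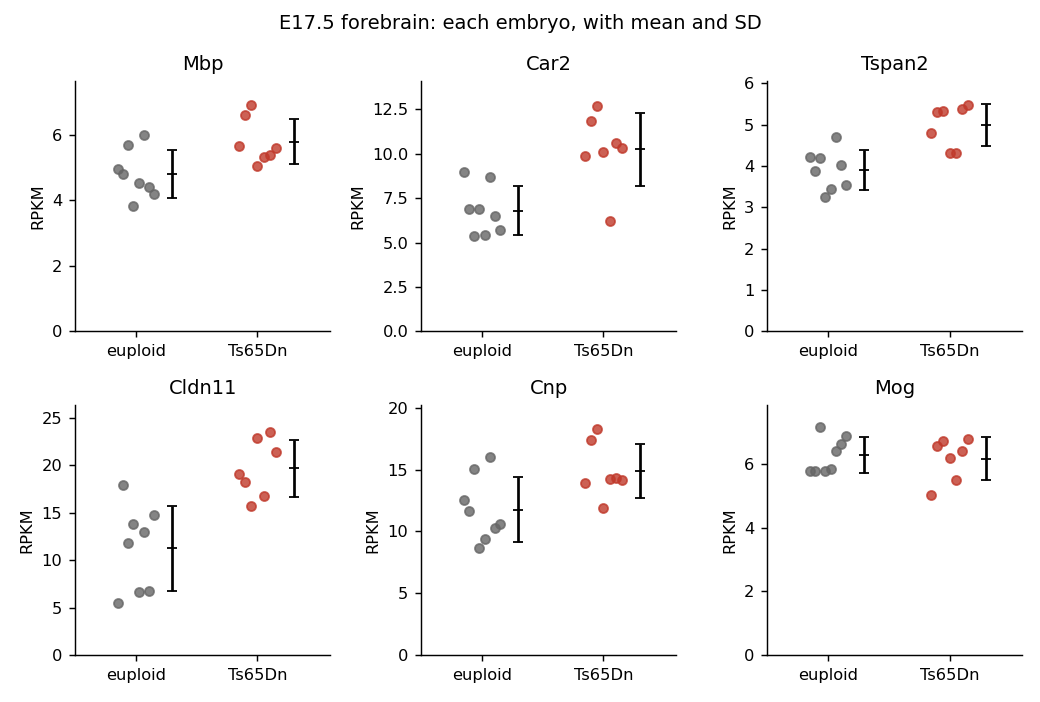
RPKM of 6 of the genes in each E17.5 embryo (grey, 8 euploid; red, 7 Ts65Dn), with the mean and SD of each group beside the points and every axis starting at 0. Car2 and Tspan2 passed the test, with 1 Ts65Dn embryo low for Car2 at 6.24 RPKM, while the groups of Mog covered nearly the same range.

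In the adult hippocampus, none of the 33 genes passed edgeR's test between genotypes in either sex. In males, Ts65Dn against euploid gave 0 of 33 at a rate among all genes of 0.795%, Ts65Dn;Brwd1+/- against Ts65Dn 0 at a rate of 0%, and Ts65Dn;Brwd1+/- against euploid 0 at 0.576%. In females the same 3 comparisons gave 0 at rates of 3.17%, 0% and 0.729%. For the mean of the sexes, Ts65Dn against euploid gave 0 at 3.4% and Ts65Dn;Brwd1+/- against Ts65Dn 0 at 0%. At an unadjusted p under 0.05, 0 of the 33 differed in male Ts65Dn against euploid and 3 in female, 1 in male Ts65Dn;Brwd1+/- against euploid and 2 in female, 2 in Ts65Dn against euploid for the mean of the sexes, and 0 in each of the 3 comparisons of Ts65Dn;Brwd1+/- against Ts65Dn. The share of all genes at an unadjusted p under 0.05 was 8.91% in males and 15.4% in females for Ts65Dn against euploid, 10.1% and 11.2% for Ts65Dn;Brwd1+/- against euploid, and 13% for Ts65Dn against euploid for the mean of the sexes. It was 7.48% in males, 3.52% in females and 5.11% for the mean of the sexes between Ts65Dn;Brwd1+/- and Ts65Dn. The counts among the 33 genes were thus no higher than these shares would give in any of the 8 comparisons. With DESeq2 in place of edgeR the count was 0 in each of these 8 comparisons, and DESeq2 with 3 RUVr factors called 1 or 2 genes in 4 of them. The comparisons within a sex share libraries, so their values are not independent of each other.

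The 6 leading marker genes show how close the groups were. Mbp had medians of 362, 365 and 393 RPKM in euploid, Ts65Dn and Ts65Dn;Brwd1+/- males, where the whole range ran from 207 to 505 RPKM. In females the medians were 428, 383 and 371 RPKM, with a range of 266 to 454 RPKM. All 6 groups overlapped. The difference of Ts65Dn from euploid was 0.14 on the log2 scale in males (95% interval -0.14 to 0.43) and -0.09 in females (-0.32 to 0.14), and that of Ts65Dn;Brwd1+/- from Ts65Dn was 0.00 (-0.29 to 0.29) and 0.04 (-0.19 to 0.27). Mean differences over the sexes were 0.03 (-0.15 to 0.21) and 0.02 (-0.16 to 0.20), so that changes of Mbp beyond these bounds lie outside the intervals.

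For Mog, the medians were 33.8, 36.2 and 39.6 RPKM in euploid, Ts65Dn and Ts65Dn;Brwd1+/- males and 39.2, 35.7 and 37.6 RPKM in females. Its Ts65Dn against euploid differences were 0.20 (-0.12 to 0.51) in males and -0.03 (-0.28 to 0.23) in females. Mag had medians of 84.7, 88.8 and 93.5 RPKM in the males and 100.6, 96.8 and 101.6 RPKM in the females, and differed by 0.23 (-0.07 to 0.53) and 0.03 (-0.20 to 0.27) between Ts65Dn and euploid. Each interval held 0. Mobp had medians of 56.3, 54.4 and 64.9 RPKM in males and 58.1, 61.3 and 58.8 RPKM in females, Cnp of 140.8, 140.2 and 154.8 RPKM in males and 151.6, 149.8 and 150.6 RPKM in females, and Opalin of 9.47, 9.66 and 10.7 RPKM in males and 9.18, 9.41 and 9.44 RPKM in females. The ranges of the 3 genotypes overlapped for each of these genes in both sexes.

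The genes with the smallest p-values did not reach the threshold. In males Mal was highest of these in Ts65Dn against euploid at 0.29 (SE 0.15, adjusted p = 0.600), with lowest, median and highest levels of 35.5, 70.6 and 94.1 RPKM in euploid, 72.1, 83.1 and 100.4 RPKM in Ts65Dn and 53.9, 90.4 and 104.4 RPKM in Ts65Dn;Brwd1+/- males. Next came Mag and Sept4 (0.14). Over the sexes Mal had a difference of 0.29 (SE 0.11, adjusted p = 0.189), Enpp6 of -0.28 (SE 0.14, adjusted p = 0.380) and Hapln2 of -0.17. In females Enpp6 was lowest, with 0.653, 1.31 and 1.72 RPKM in euploid, 0.552, 0.924 and 1.204 RPKM in Ts65Dn and 0.601, 0.919 and 1.32 RPKM in Ts65Dn;Brwd1+/- animals. Its difference between Ts65Dn and euploid females was -0.53 (SE 0.19, 95% interval -0.92 to -0.13, adjusted p = 0.169), and it passed without the euploid female B125 (-0.62, adjusted p = 0.0468). In male Ts65Dn the difference of Enpp6 was -0.05, and the interaction with sex did not pass (-0.47, SE 0.28, adjusted p = 0.547). Hapln2 (-0.26) and Tmem125 (-0.21), a membrane protein, were next in females.

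Between Ts65Dn;Brwd1+/- and Ts65Dn the smallest p-values belonged to Gal3st1 (0.12, SE 0.11), Aspa (0.15), the enzyme that frees acetate from N-acetylaspartate, and Nkx6-2 (0.14) in males. In females they belonged to Sept4 (0.15, SE 0.09, unadjusted p = 0.0905), Gjc3 (-0.16) and Tmem125 (0.11). For the mean of the sexes they belonged to Aspa (0.13), Sept4 (0.09) and Tmem125 (0.13), with adjusted p-values of 0.929. Between Ts65Dn;Brwd1+/- and euploid they belonged to Mal (0.34, adjusted p = 0.431), Aspa (0.27) and Sept4 (0.18) in males, and to Enpp6 (-0.44, adjusted p = 0.388), Hapln2 (-0.23) and Sept4 (0.14) in females.

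Over the 33 genes the median difference of Ts65Dn from euploid was 0.11 in males, with 28 genes above 0, and 0.01 in females, with 19 above 0. Without the euploid male B79 the male median was 0.03, and without B85, the library labelled euploid female with male sex genes, the female median was -0.03, with 8 genes above 0. For Ts65Dn;Brwd1+/- against Ts65Dn the medians were 0.04 in males (29 above 0) and 0.01 in females (19 above 0), and both medians changed sign as single libraries were left out. The male median ran from -0.0047 (without the Ts65Dn male B40) to 0.12 (without B51) and its count from 16 to 33, and the female median from -0.03 (without the Ts65Dn female B134) to 0.04 and its count from 9 to 25. The medians of all genes lay between -0.016 and 0.004 in these comparisons. By role, 10 of 10 structural genes were above 0 in Ts65Dn against euploid for the mean of the sexes, with 6 of 8 adhesion genes, 5 of 7 enzymes, both transcription factors and 5 of 6 of the others, and role medians of 0.04 to 0.08.

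**Figure D3:**
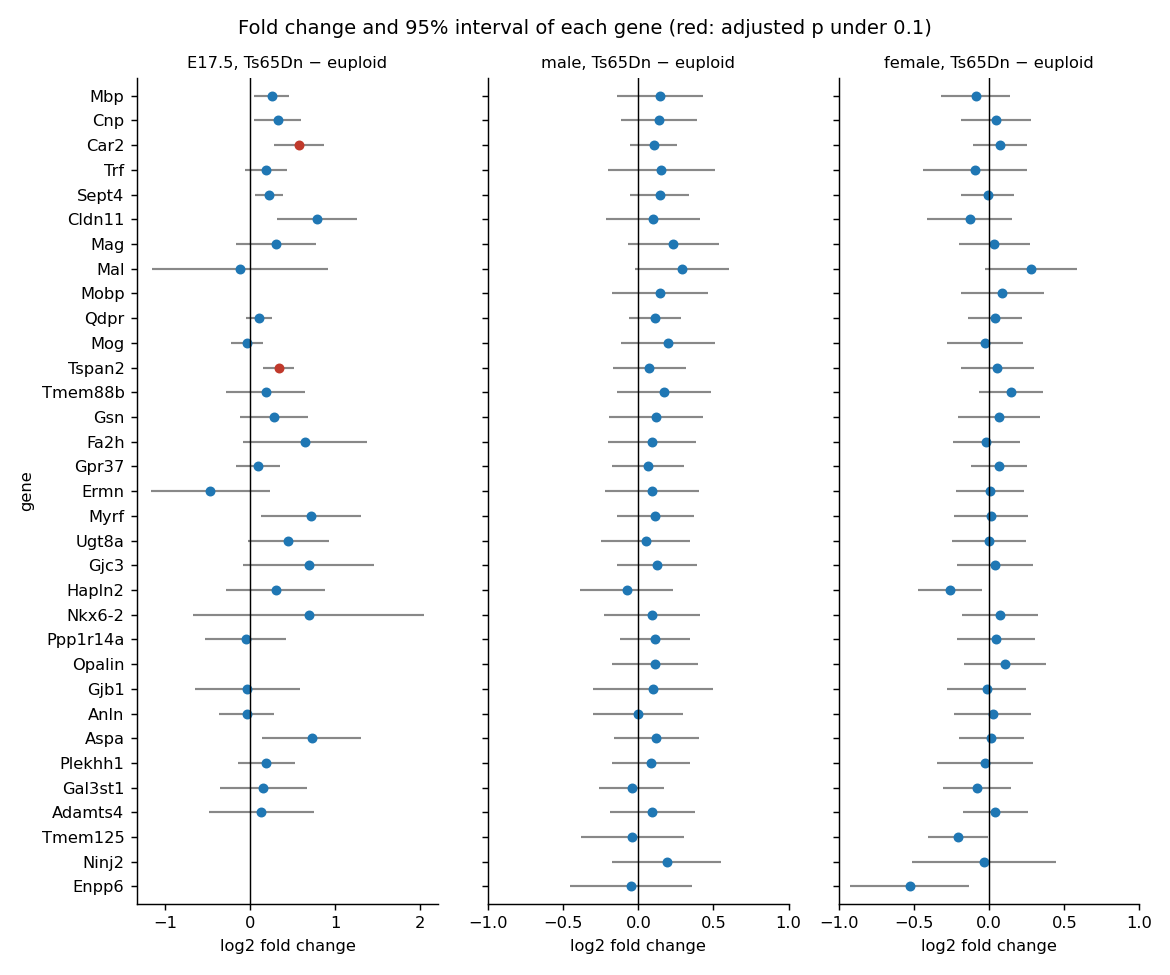
Log2 fold change of Ts65Dn over euploid for each gene, with its 95% interval, at E17.5 (left), in males (middle) and in females (right), the latter sharing an axis range. Red marks the genes that passed at E17.5 (Car2 and Tspan2), 5 genes were not tested there, and in adults Enpp6, Hapln2 and Tmem125 of females are the only intervals that leave out 0.

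The sex by genotype interaction was tested with edgeR over all 6 adult groups. In both interactions and both sex comparisons, 0 of the 33 genes were at an unadjusted p under 0.05, and DESeq2 called 0. Of all genes, 11.1% and 3.73% were at such a p in the interactions for Ts65Dn against euploid and for Ts65Dn;Brwd1+/- against Ts65Dn, and 4.44% and 19.8% between the sexes in Ts65Dn and in euploid animals. No gene among the 33 passed for Ts65Dn against euploid, where 0% of all genes did. Of the estimates 2 were above 0, and those with the smallest p-values were Enpp6, Mbp (-0.23, SE 0.18, adjusted p = 0.695) and Sept4 (-0.15). For Ts65Dn;Brwd1+/- against Ts65Dn 0 of 33 passed, at a rate of 0%, and 11 estimates were above 0. The smallest p-values were those of Ugt8a (-0.21, SE 0.19), which makes the galactolipids of myelin, Gjc3 (-0.20) and Tspan2 (-0.16). Between female and male Ts65Dn animals 0 of 33 passed, at a rate of 0.0287%, with Enpp6 at -0.35 (SE 0.20), Ninj2 at -0.18 and Ermn, an ezrin-like protein of the myelin sheath, at -0.10. Between female and male euploid animals 0 of 33 passed, at a rate of 9.74%. There 27 genes were above 0 with a median of 0.08, and Mag (0.21, SE 0.13), Hapln2 (0.17) and Trf (0.21) had the smallest p-values.

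Calls among other genes of the lineage are given for adult Ts65Dn against euploid for the mean of the sexes, where 3.4% of all genes passed. Of 23 precursor and committed genes 2 rose, Olig1 by 0.37 (SE 0.06) and Olig2 by 0.33 (SE 0.06), both of which are triplicated. Of 40 other oligodendrocyte genes 2 rose, the triplicated Prr18 by 0.64 (SE 0.11, adjusted p = 8.7e-05) and Il33, a cytokine held in the nuclei of glia, by 0.32 (SE 0.09). Of 22 cholesterol genes 19 were above 0 and 2 rose, the synthase Hmgcs1 by 0.23 (SE 0.05) and the regulator Srebf2 by 0.13 (SE 0.03). The 13 choroid plexus genes had a median of -0.37 with 1 above 0 and 0 called, and their summed level ran from 167.3 to 10448 CPM over single adult libraries.

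The largest differences among adult libraries lay within groups. The mean log2 CPM of the 33 genes ran from 5.04 to 6.07 in euploid males (mean 5.73 ± 0.30, SD, n = 8), from 5.54 to 6.16 in Ts65Dn males (5.84 ± 0.23, n = 7) and from 5.36 to 6.16 in Ts65Dn;Brwd1+/- males (5.90 ± 0.25, n = 8). In females it ran from 5.30 to 6.06 in euploid (5.81 ± 0.25, n = 8), from 5.43 to 6.06 in Ts65Dn (5.81 ± 0.23, n = 8) and from 5.69 to 6.00 in Ts65Dn;Brwd1+/- animals (5.83 ± 0.10, n = 8). The means of the 6 groups thus differed by less than the SD of 5 of them. On the scale of summed CPM, the highest library of a group was above the lowest by 2.15 times in euploid males, 1.85 times in Ts65Dn;Brwd1+/- males, 1.64 times in euploid females and 1.33 times in Ts65Dn;Brwd1+/- females. The lowest libraries were B79 (euploid male, 5.04), B85 (labelled euploid female, 5.30), B51 (Ts65Dn;Brwd1+/- male, 5.36) and B134 (Ts65Dn female, 5.43).

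**Figure D4:**
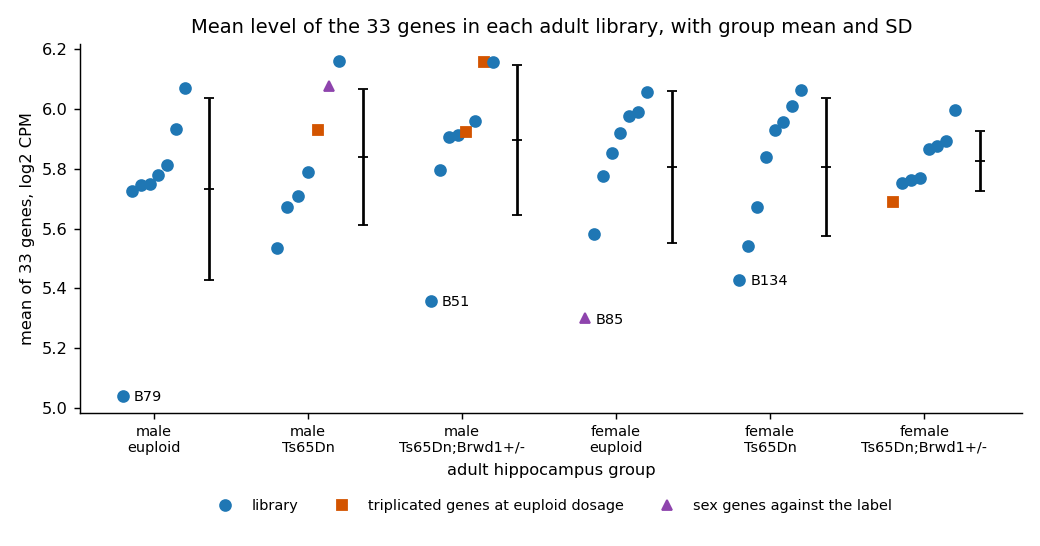
Mean log2 CPM of the 33 genes in each adult library by group, ordered by value within a group, with the group mean and SD beside the points. Squares mark the 4 libraries with the triplicated genes at euploid dosage and triangles the pair with sex genes against the label, and B79, at 5.04, is the lowest of all.

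The 33 genes moved together across these animals. With the mean of each of the 6 groups removed, all 528 pairs of the genes had a Pearson r above 0 over the 47 adult libraries, with a median of 0.746. The closest pair was Cnp and Mag (0.977) and the loosest Gsn and Plekhh1 (0.065). These are descriptions, with no p, and the 2 values of a pair come from the same library and share its depth. Against the mean of the others, Mbp and Fa2h had an r of 0.960 and Mog of 0.954, while Gsn had 0.560, Ninj2 0.602 and Enpp6 0.646. Gsn is made by several cell types, and Ninj2 and Enpp6 had the lowest levels of the 33.

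The median spread within groups was above that of all genes in the range of level that the 33 cover. The SD of log2 CPM within groups had a median of 0.280 over the 33 genes. It was 0.168 over the 13700 genes between the lowest and highest level of the 33, a set that holds the 33 as well. That range is wide, and genes were not matched for level within it. It was largest for Ninj2 (0.437), Enpp6 (0.417) and Trf (0.357), and smallest for Car2 (0.171), Qdpr (0.177) and Sept4 (0.191), which are also made by other cells.

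Genes outside the 33 that followed them most closely were, by r with the mean of the 33 over the same 47 libraries, Ttyh2 (0.947), Carhsp1 (0.929), Evi2a (0.924), S1pr5 (0.920), Tmem63a (0.892), Slc44a1 (0.892), Galnt6 (0.891), Bcas1 (0.888) and Rhog (0.888). Of 17394 genes compared, 235 had an r above 0.5. The mean of the 40 other oligodendrocyte genes had an r of 0.963 (Spearman's rho 0.919), with 31 of the 40 above 0.5 singly. That of the precursor and committed genes had an r of 0.547, of astrocyte genes 0.389, of microglia genes 0.286, of endothelium and mural genes 0.275, of choroid plexus genes 0.173, of cholesterol synthesis genes 0.072 and of neuron genes -0.293. In B79 the other oligodendrocyte genes had a mean of 4.94 log2 CPM and in B51 of 5.06, against 5.60 to 5.67 in the 3 libraries that were highest for the 33 genes. Neuron genes were at 9.29 and 9.43 in B79 and B51, and at 9.28 to 9.32 in those 3.

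**Figure D5:**
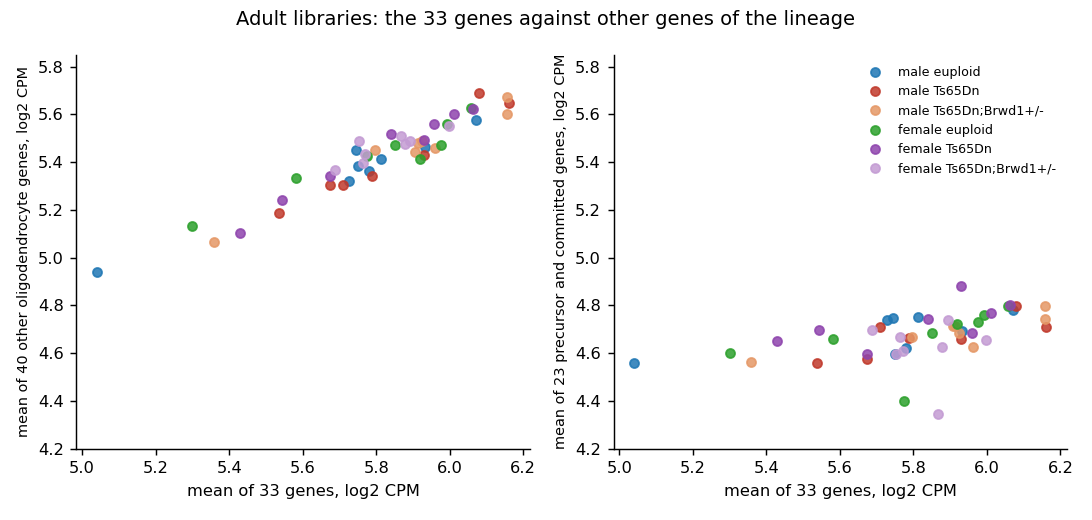
Mean log2 CPM of the 33 genes in each of the 47 adult libraries (x axis) against that of 40 other oligodendrocyte genes (left) and of 23 precursor and committed genes (right), coloured by group. The left points lie along a line (r of 0.963 with group means removed), from B79 at 5.04 upwards, and the right points rise less (r of 0.547).

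The counts were made without strand. Members whose exon or gene span overlaps another counted gene therefore may hold reads of it, or have lost them. In RefSeq these included Cnp with Dnajc7 (9058 shared bases), Plekhh1 with Pigh (987), Anln with 9530077C05Rik (653), Tspan2 with its antisense RNA Tspan2os (648), Aspa with Spata22 (317) and Nkx6-2 with Inpp5a (277). Tspan2os had a mean of 0.345 CPM in euploid embryos and Spata22 of 0.037 CPM, while Dnajc7 was at 234 CPM there.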

How the data were processed

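The authors mapped single reads of TruSeq v2 polyA libraries with HISAT2, counted them per gene with featureCounts, and deposited raw counts as whole numbers, without normalization, in a table for embryos and another for adults. The submitters' processing notes give HISAT2 2.1.0 and featureCounts 2.0.1. Entrez identifiers were matched to RefSeq for 25275 of 27179 genes, and the other 1904 held 0.382% of reads. All 62 count columns matched a sample, and library totals of 14.9 to 137.1 M reads set the counting error.

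Each comparison was tested over all genes with edgeR 4.0.16 in R 4.3.3 (TMM, filterByExpr with a minimum count of 10, robust quasi-likelihood test) with Benjamini-Hochberg adjustment at 0.1, the cutoff of the study. SE is the log2 fold change over the root of F. The 3 genotypes were fitted together within each sex, and means over the sexes, interactions and sex differences used all 6 adult groups. Levels used TMM-scaled library sizes, with a prior count of 0.5 on the log2 scale. Exon length came from GENCODE, as the bases covered by the exons of all basic transcripts of a gene. P-values measure the spread between animals. The tests were checked on simulated counts.

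The 33 genes, the other gene lists and the tests were chosen with earlier results of these data known. Genes named are those called (at most 10 by p), or else the 3 with the smallest p, beside 6 markers, extremes of level, change and spread, and the 10 other genes most like the 33, of which 1 is not reported here. The alternatives were DESeq2 1.42.0 with and without 3 RUVr factors, upper-quartile scaling, no filter, a threshold of 0.05, blocks, and leaving out each library or the 6 that went against their labels. A Ddx3y covariate, the omission of EU7 and the fit of 14 embryos without a block were added after seeing the data. No library was found to repeat another (chi-square per degree of freedom of at least 7.64 between libraries of a group).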

Additional observations from a re-analysis of the deposited data

Results flagged for a closer look

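Values were checked for a library that stands apart from its group, in 108 sets of 1 gene or the mean of the 33 genes in 1 group, and 21 values from 5 libraries were marked. Chance marks about 1 in 20 sets. All values are log2 CPM, and all but 1 are the lowest of their group.

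The euploid male B79 accounted for 11 of the 21. It was at 5.04 for the mean of the 33 genes (next 5.73), and at 10.72 for Mbp, 4.89 for Mog, 6.75 for Mag, 7.08 for Mobp, 7.60 for Cnp, 6.17 for Tspan2, 6.36 for Cldn11, 6.62 for Mal, 1.51 for Enpp6 and 6.79 for Sept4. The Ts65Dn;Brwd1+/- male B51 accounted for 7, with 5.36 for the mean (next 5.80), 10.95 for Mbp, 5.34 for Mog, 7.44 for Mobp, 7.40 for Car2, 6.70 for Cldn11 and 7.23 for Mal. Since the 33 genes move together, these are not separate events.

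Car2 was low in the library labelled euploid female B85, at 7.18 (next 7.54), and in the Ts65Dn embryo TS5, at 3.48 (next 4.15). Mal was high in the euploid embryo EU3, at 3.62 against 1.10 in the next embryo, and without EU3 the difference of Mal between Ts65Dn and euploid embryos was 0.74 (adjusted p = 0.089, edgeR) in place of -0.12.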

How the results depend on the processing

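The number of the 33 genes called at E17.5 (2 with edgeR) depended on the processing. It was 0 at a threshold of 0.05, 1 without the filter on low counts (Car2), 3 with DESeq2, and 12 with DESeq2 and 3 RUVr factors, of which Ermn was lower. Over all genes these fits called 575 and 4043, against 221 with edgeR. It was 0 with Ddx3y as a covariate and 0 without EU7, both chosen after seeing the data. Leaving out each embryo gave 0 to 5 calls, and the median log2 fold change of the genes stayed between 0.20 and 0.34. Over those fits the adjusted p of Car2 ran from 0.0112 to 0.158 and that of Tspan2 from 0.0484 to 0.196. With the replicate number as a block over numbers 1 to 7 the count was 0, as it was for the same 14 embryos with no replicate block, and with the title number as a block over all embryos it was 1 (Car2). The numbers did not pair the embryos: same-numbered embryos correlated at -0.129 to 0.236, and 1 of 7 correlated best with its own number.

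In adults, DESeq2 with 3 RUVr factors called 1 gene in male Ts65Dn;Brwd1+/- against euploid (Gsn), 2 in female Ts65Dn against euploid (Hapln2 and Enpp6, both lower), 1 in female Ts65Dn;Brwd1+/- against euploid (Enpp6) and 2 for the mean of the sexes in Ts65Dn against euploid (Mal and Enpp6), with 1313, 4363, 3564 and 2834 calls over all genes. Leaving out each library gave 0 to 1 calls in female Ts65Dn against euploid and in female Ts65Dn;Brwd1+/- against euploid, where the call was Enpp6 without B125, and 0 in the other adult comparisons so treated. The cause of these differences was not tested. Mal at E17.5 turned from -0.12 to 0.74 without EU3. DESeq2 gave an adjusted p for 32 of the 33 genes between adult and embryo and called all 32.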

Other observations

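In euploid adult hippocampus against euploid E17.5 forebrain, where age and tissue cannot be told apart, 11 of 12 astrocyte genes rose with a median log2 fold change of 2.73 (edgeR, adjusted p under 0.1), among them Gfap by 5.68 and the glutamate transporter gene Slc1a2 by 4.72. All 11 microglia genes rose, with a median of 2.17 (Csf1r by 2.60, P2ry12 by 2.84), as did 9 of 12 neuron genes, with 3 lower (Snap25 rose by 3.67), 8 of 9 hippocampal subfield genes, with 1 lower (Spink8 rose by 6.72), and 9 of 13 choroid plexus genes. All 8 proliferation genes fell, with a median of -5.16 (Ccnb1 at -6.72), and all 4 red blood cell genes fell. In the endothelium and mural list 3 of 10 genes rose and 5 fell.

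In adult Ts65Dn against euploid for the mean of the sexes, S100b of the astrocyte list rose by 0.28, Nefl and Nefm of the neuron list, both neurofilament genes, by 0.18 and 0.19, Spink8 of the hippocampal subfield list by 0.37 and Rgs5 of the endothelium and mural list by 0.44, while Top2a, a proliferation gene, fell by 0.56 on the log2 scale. No microglia or red blood cell gene passed. Between Ts65Dn;Brwd1+/- and Ts65Dn no gene of any list passed.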
